A study of Homo sapiens with 6 samples.

Results

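Glycolysis and the response to low oxygen were followed through 40 genes in SUM159 oncospheres. SUM159 is an established human line of triple-negative breast cancer, and oncospheres are the floating clusters that its cells form when they cannot attach. The genes were listed by name: 16 glycolytic enzymes, 4 regulators of glucose flux, 17 hypoxia response genes and 3 hypoxia transcription factors. On the array, 38 of the 40 had a probe set annotated to them alone, out of 19775 such genes, and each was represented by its probe set with the highest mean over all arrays. CA9 and INSIG2-AS1 had none and have no value here.

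There were 3 arrays of cells transduced with lentiviral pLVX-puro that carried human SCGB3A1, a small secreted protein, and 3 arrays of cells transduced with the empty pLVX-puro vector. Both groups were selected with puromycin (2 µg/ml) for 7 days, seeded at 12500 cells/ml in HuMEC medium with BSA and B27, and harvested after 5 days of growth without attachment. The replicates were described as biological. Whether each began from its own infection is unknown here, and the p-values cover only the variation among the 6 arrays, which may be partly technical. The oxygen level of the cultures is not given in the sources used here. The comparison asked how the cells respond to SCGB3A1. In bulk RNA, fewer cells that express a gene and less RNA of it per cell cannot be told apart, which matters in spheres, where inner and outer cells were harvested together.

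Values are log2 expression after robust multiarray averaging, and a difference of 1 is a 2-fold change. The SCGB3A1 probe set itself read 6.60, 6.92 and 6.71 in the SCGB3A1 arrays, against 6.80, 6.89 and 7.05 in the empty vector arrays (a difference of -0.17 ± 0.10 SE; adjusted p = 0.83 by limma). With 1 array left out the difference lay between -0.26 and -0.10, lowest without SCGB3A1 replicate 2 and highest without SCGB3A1 replicate 1 or empty vector replicate 3. The array thus gave no check of the group labels, and every direction holds for the arrays as labelled. Whether that probe set covers the sequence in the vector is unknown here. Of the markers, all 6 of mesenchymal-like basal breast cancer cells, VIM and CD44 among them, lay above 6.91, the median of all probe sets, in both groups. The epithelial junction genes EPCAM and CDH1 lay at 6.07 to 6.40. Of the endothelial genes, CDH5 and KDR lay below that median and PECAM1 at 8.14 to 8.39, and of the haematopoietic genes CD14 lay below it and PTPRC at 7.55 to 7.95. The luminal genes lay at 6.24 to 8.26, 2 of 4 above that median, and all 3 fibroblast genes, which mesenchymal-like cancer cells can share, at 8.41 to 13.74. Between the groups, KRT5 and KRT14 read 0.56 each (limma, adjusted p = 0.17 and 0.29) and DCN 0.40 (adjusted p = 0.32), and the other 17 markers between -0.24 and 0.08. The part of cell makeup in the results was not tested. Empty vector replicate 2 stood apart from the other arrays, with correlations of 0.9894 to 0.9931 to them and a score of 30.7 on a first principal component on which the others lay between -16.1 and 6.13.

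Glycolysis splits glucose into pyruvate in the cytosol, and lactate dehydrogenase turns pyruvate into lactate, so that the pathway can run without oxygen. When oxygen is low, the prolyl hydroxylases encoded by the EGLN genes stop marking HIF-1α and HIF-2α for destruction. These factors pair with ARNT, bind a short element in DNA and raise the transcription of most glycolytic enzymes, of angiogenic factors such as VEGFA and of enzymes that stiffen collagen. HIF-1α itself is governed mainly as a protein, so its mRNA does not report its activity, while the mRNAs of its targets do.

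None of the 38 measured genes passed the threshold of 0.05 between SCGB3A1 and empty vector oncospheres after adjustment over all 54613 probe sets (limma, adjusted p from 0.78 to 0.99), where 0.0303% of all genes were called. Before adjustment, 2 of the 38 (5.26%) had p under 0.05, CA12 and KDM3A, beside 6.82% of all genes. Both lay higher in SCGB3A1 arrays, as 3.93% of all genes did at that p. The 38 log2 fold changes lay between -0.18 and 0.28 with a median of 0.00326, where the median over all genes was 0.0106. As many were positive as negative, 19 each, beside 54.3% of all genes above 0. The group ranges did not overlap for 6 of the 38 (15.8%), beside 12.3% of all genes. SCGB3A1 arrays lay higher for 3 of them, GPI, CA12 and EPAS1, beside 7.09% of all genes, and lower for 3, LDHA, LDHB and PFKFB3, beside 5.24%. These shares lay close to those of all genes.

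The data bound what a difference could be. The 95% interval of the log2 fold change lay within -0.5 to 0.5 for 37 of the 38, beside 98.3% of all genes, and its median half-width was 0.17. The exception was HK2, with an interval from -0.15 to 0.71. A 2-fold difference lay outside the interval of every one of the 38. Differences of the size of the half-width were not detectable with 3 arrays per group. Larger ones could also miss the adjusted threshold, as did that of the marker KRT5, at 0.56 (limma, adjusted p = 0.17).

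**Figure D1:**
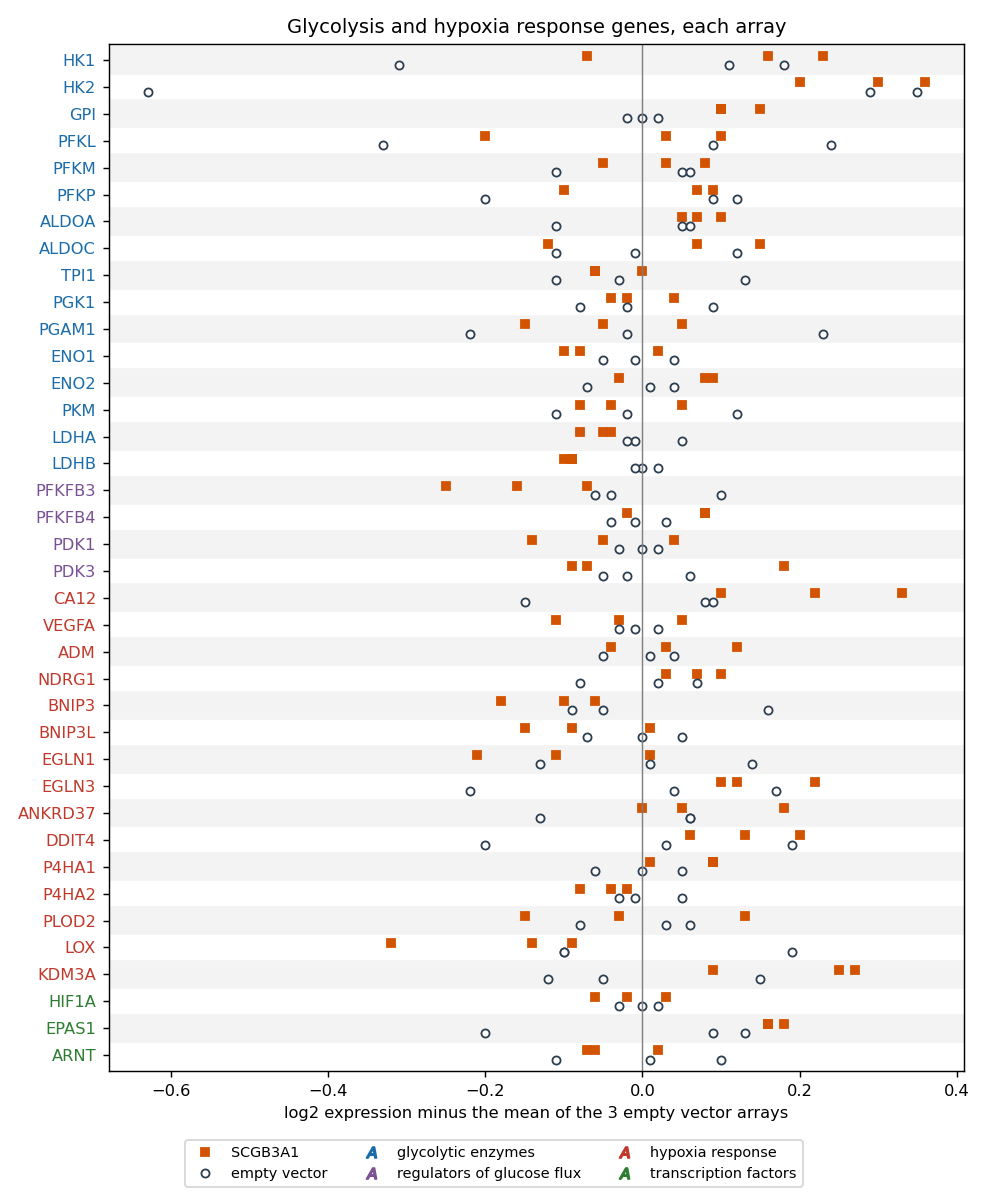
Log2 expression of each of the 38 genes in every array, relative to the mean of the 3 empty vector arrays (horizontal axis), with filled squares for SCGB3A1, open circles for empty vector, and names coloured by role. Most rows interleave. GPI, CA12 and EPAS1 show squares to the right of all circles, and PFKFB3, LDHA and LDHB to the left. HK2 has 1 empty vector array far to the left.

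**Figure D2:**
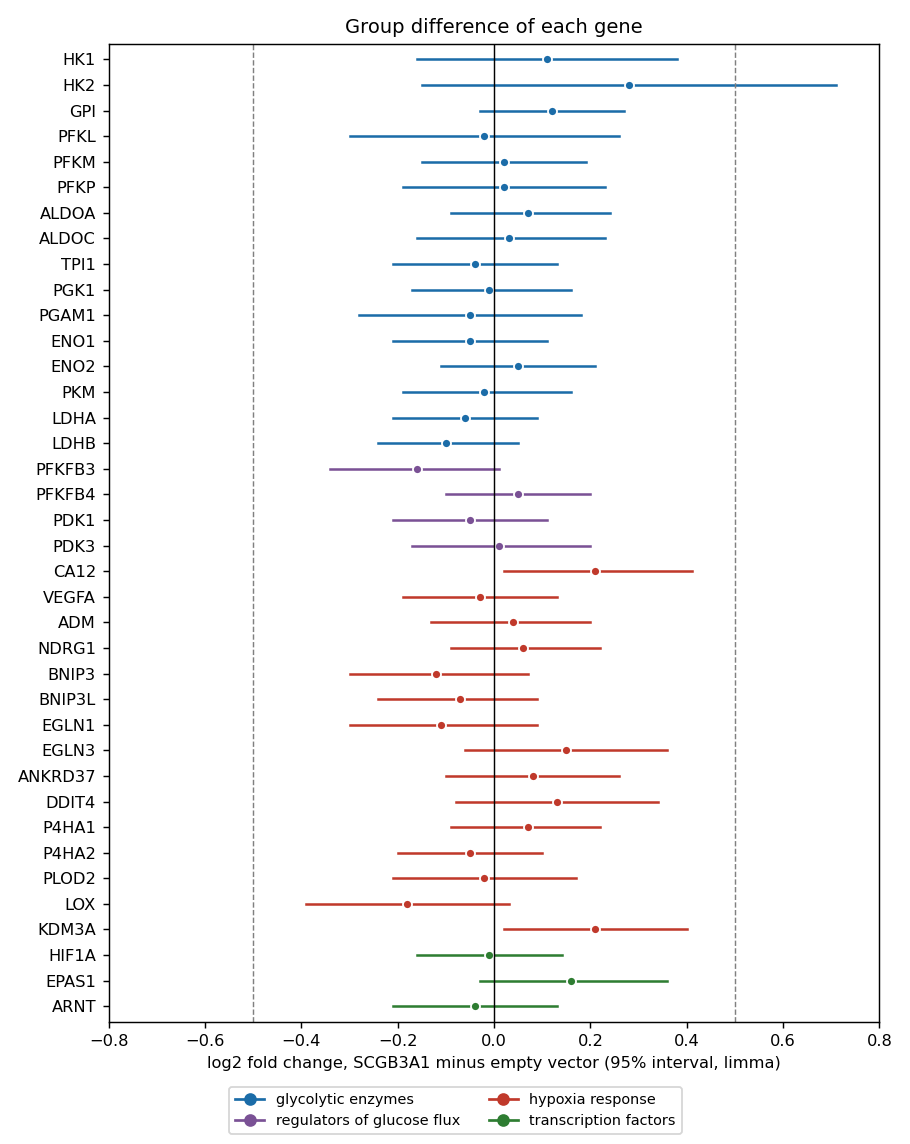
Log2 fold change, SCGB3A1 minus empty vector (horizontal axis), with its 95% interval from limma (bars, n = 3 arrays per group) and dashed lines at -0.5 and 0.5. All intervals but that of HK2, which reaches 0.71, stay between the dashed lines.

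Besides their roles, the members' promoters were searched for the letters ACGTG or GCGTG, the core of the hypoxia response element. Promoters from RefSeq (GRCh38.p14, 250 bases before to 50 after each annotated start) were found for 36 of the 40 genes, 62 promoters in all. The core stood on either strand in 43 of these (69.4%), beside 55.0% of the 21471 promoters of genes on the array. CACGTG, which reads the same on both strands, counts as a match on each. The members' promoters were also richer in G and C, with a median of 68.0% and 27.5 CpG pairs, beside 62.7% and 21.0, and the core itself contains CG, so the part of base composition in the difference was not tested. A match is a description of letters and not a site of binding. The stretches shown belong to some of the genes with a match, with the core in capitals (as CACGT or CACGC where it lies on the other strand). They are shown as examples of where these letters lie, and all lie before the annotated start.
CA12, chr15:63382057-63382096, minus strand: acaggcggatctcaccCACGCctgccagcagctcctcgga
KDM3A, chr2:86441328-86441367, plus strand: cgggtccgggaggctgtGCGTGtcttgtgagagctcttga
EGLN1, chr1:231422288-231422327, minus strand: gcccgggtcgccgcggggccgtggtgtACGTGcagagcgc
LOX, chr5:122078279-122078318, minus strand: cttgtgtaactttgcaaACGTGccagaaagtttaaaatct
EPAS1, chr2:46297273-46297312, plus strand: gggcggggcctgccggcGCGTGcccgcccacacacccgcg
PFKFB3, chr10:6202808-6202847, plus strand: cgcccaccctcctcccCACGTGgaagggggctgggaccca
GPI, chr19:34364813-34364852, plus strand: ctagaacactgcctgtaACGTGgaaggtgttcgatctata
PGK1, chrX:78104048-78104087, plus strand: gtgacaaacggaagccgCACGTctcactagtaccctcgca

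CA12, KDM3A, EPAS1 and GPI, whose values lay higher in SCGB3A1 arrays, carry the core, and so do EGLN1, LOX and PFKFB3, whose values lay lower. By promoter, the core stood in 22 of the 36 of the glycolytic enzymes (61.1%) and in 14 of the 16 of the hypoxia response genes (87.5%), beside the same 55.0%. By gene, at least 1 promoter held it for 15 of the 16 enzymes (93.8%) and 11 of the 13 hypoxia response genes in the table (84.6%), beside 62.3% of the genes on the array, but several enzymes have many promoters and so more chances of a match. It was not found in these windows for PGAM1, EGLN3, P4HA2 and ARNT.

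The 16 glycolytic enzymes had a median log2 fold change of 0.00611, with 8 positive and 8 negative, and 0 had an unadjusted p under 0.05. GPI, which turns glucose-6-phosphate into fructose-6-phosphate, read 11.17, 11.12 and 11.12 in SCGB3A1 arrays, against 11.02, 11.00 and 11.04 in empty vector arrays. The SCGB3A1 arrays lay above all controls, but by only 0.12 ± 0.07 SE on the log2 scale (limma, adjusted p = 0.83). HK2, the hexokinase that many tumours induce to trap glucose in the cell, gave the widest spread of the list. It read 9.22, 9.12 and 9.28 in SCGB3A1 arrays, against 8.29, 9.27 and 9.21 in empty vector arrays. Its difference of 0.28 ± 0.20 SE (limma, adjusted p = 0.86) rested on empty vector replicate 1 and was -0.04 without it. The other probe sets of HK2 did not show that low array, and read -0.04 and -0.10.

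At the end of the pathway, both lactate dehydrogenase subunits lay slightly lower in SCGB3A1 arrays. LDHA, the subunit favoured for making lactate, read 13.55, 13.56 and 13.52 in SCGB3A1 arrays, against 13.59, 13.65 and 13.58 in empty vector arrays (log2 fold change -0.06, limma adjusted p = 0.92). LDHB, the subunit of the heart enzyme, read 13.39, 13.39 and 13.38 in SCGB3A1 arrays, against 13.50, 13.48 and 13.47 in empty vector arrays. Its groups did not overlap, and the difference was -0.10 ± 0.07 SE (limma, adjusted p = 0.86). The second probe set of LDHB, at a mean level of 13.06, read 0.07, so the gene has no settled direction. Both subunits have many processed pseudogenes and similar relatives, as do PGK1, ENO1, ALDOA, TPI1 and PGAM1, and their probe sets may share signal with them.

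The remaining enzymes read between -0.05 and 0.11, of which HK1, the highest, turned to -0.04 without empty vector replicate 2. They include the hexokinase HK1 (0.11), the phosphofructokinase subunits PFKL (-0.02), PFKM (0.02) and PFKP (0.02), the aldolases ALDOA (0.07) and ALDOC (0.03), and the triose-phosphate isomerase TPI1 (-0.04). PGK1, which makes the first ATP of the pathway, read -0.01, the mutase PGAM1 -0.05, the enolases ENO1 and ENO2 -0.05 and 0.05, and the pyruvate kinase PKM -0.02. ALDOA was another case of probe sets that disagree, with one at a mean level of 9.58 that read -0.20 (limma, adjusted p = 0.83). So was ENO1. Its probe set with the second highest level (13.06) lay above all controls in SCGB3A1 arrays, at 13.14, 13.09 and 13.10 against 13.06, 12.96 and 12.99, a difference of 0.10 (limma, adjusted p = 0.86).

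Cells can shift between related enzymes without changing the sum of a pathway, so 7 pairs were compared as the difference of their log2 values within each array. HK2 minus HK1 was -2.59 ± 0.24 in SCGB3A1 and -2.76 ± 0.75 in empty vector arrays (SD, n = 3 each; exact two-sided permutation p = 0.9). LDHA minus LDHB was 0.16 ± 0.01 in SCGB3A1 and 0.12 ± 0.04 in empty vector arrays (SD, n = 3 each; exact permutation p = 0.4). These levels come from different probe sets, so only the shift between groups can be read, not which isoform is more abundant. The shifts were 0.04 for PFKP minus PFKL, -0.04 for ALDOC minus ALDOA, 0.10 for ENO2 minus ENO1 and -0.06 for PDK1 minus PDK3. The largest shift was 0.18, for EPAS1 minus HIF1A (exact permutation p = 0.1, the smallest that 3 against 3 arrays allow; adjusted over the 7 pairs, p = 0.7). The other 6 pairs had adjusted exact permutation p = 0.9. Without empty vector replicate 2 that shift was 0.07, that of ENO2 minus ENO1 0.04 and that of LDHA minus LDHB 0.06, against 0.03 with it.

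Among the regulators of glucose flux, PFKFB3 gave the smallest p. This enzyme makes fructose-2,6-bisphosphate, the strongest activator of phosphofructokinase. It read 10.54, 10.45 and 10.63 in SCGB3A1 arrays, against 10.66, 10.80 and 10.64 in empty vector arrays. The 3 SCGB3A1 arrays lay below all controls, narrowly for replicate 3, and the difference was -0.16 ± 0.08 SE (limma, adjusted p = 0.82). Without empty vector replicate 2, the highest array, it was -0.11 (limma, adjusted p = 0.88). PFKFB4, its relative, read 8.65, 8.65 and 8.55 in SCGB3A1 arrays, against 8.56, 8.53 and 8.60 in empty vector arrays, and the groups overlapped (0.05, limma adjusted p = 0.94). PDK1 and PDK3 encode kinases that shut the pyruvate dehydrogenase complex and so keep pyruvate out of mitochondria. They read -0.05 and 0.01, and 0 of these 4 genes had an unadjusted p under 0.05.

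The 15 measured hypoxia response genes had a median log2 fold change of 0.035, with 8 positive and 7 negative. CA12, a membrane carbonic anhydrase that helps cells export acid, was covered best. Its highest probe set read 11.97, 11.86 and 11.74 in SCGB3A1 arrays, against 11.72, 11.49 and 11.73 in empty vector arrays. The groups touched but did not overlap, and the log2 fold change was 0.21 ± 0.09 SE, a 1.16-fold difference (limma, adjusted p = 0.78). Of the 7 probe sets of CA12, 4 had an unadjusted p under 0.05, with log2 fold changes of 0.19 to 0.21, and in each of these the SCGB3A1 arrays lay above all controls. One of them, at a mean level of 11.21, read 11.38, 11.30 and 11.27 in SCGB3A1 arrays, against 11.14, 11.09 and 11.08 in empty vector arrays (0.21 ± 0.07 SE; limma, adjusted p = 0.74). The other 3 read 0.13, 0.03 and -0.02, at mean levels of 9.92, 7.25 and 7.02. Probe sets of 1 gene read the same RNA of the same arrays and are not separate evidence. Without empty vector replicate 2, which was the lowest array for the highest probe set, the difference of that probe set was 0.13 (limma, adjusted p = 0.86). That array was also lowest for the probe set at a mean level of 11.68. For those at 11.21 and 11.05 it was neither the lowest nor the highest.

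KDM3A, a histone demethylase that HIF-1α induces, read 9.78, 9.76 and 9.60 in SCGB3A1 arrays, against 9.66, 9.39 and 9.46 in empty vector arrays. SCGB3A1 replicate 3 lay within the control range, and the log2 fold change was 0.21 ± 0.09 SE (limma, adjusted p = 0.79). It was 0.15 without empty vector replicate 2 (limma, adjusted p = 0.85), and its second probe set, at a mean level of 6.09, read 0.09. LOX, the lysyl oxidase that cross-links collagen, was singled out after its values were seen, because its 3 probe sets had the same sign. The highest read 9.08, 8.90 and 9.13 in SCGB3A1 arrays, against 9.12, 9.41 and 9.12 in empty vector arrays. Its log2 fold change was -0.18 ± 0.10 SE (limma, adjusted p = 0.82), and -0.09 without empty vector replicate 2, the highest array. The other probe sets of LOX read -0.17 each. For the one at a mean level of 8.09, the groups did not overlap, with 8.08, 7.98 and 7.96 in SCGB3A1 arrays, against 8.29, 8.11 and 8.14 in empty vector arrays (limma, adjusted p = 0.80).

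EGLN1, the main oxygen-sensing prolyl hydroxylase, read 9.93, 9.83 and 10.05 in SCGB3A1 arrays, against 10.05, 10.18 and 9.91 in empty vector arrays. The groups overlapped (-0.11 ± 0.09 SE; limma, adjusted p = 0.89), and the difference was -0.04 without empty vector replicate 2. A dimmer probe set of EGLN1, at a mean level of 8.30, read 8.06, 8.30 and 8.23 in SCGB3A1 arrays, against 8.49, 8.32 and 8.41 in empty vector arrays, and did not overlap (log2 fold change -0.20; limma, adjusted p = 0.78). The remaining probe sets of EGLN1 read -0.05 and 0.01. EGLN3, a hydroxylase strongly induced by HIF, read 0.15, with 7.98, 7.86 and 7.88 in SCGB3A1 arrays and 7.93, 7.54 and 7.80 in empty vector arrays. Without empty vector replicate 2, the lowest array, it read 0.04, and 0.24 without replicate 1.

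The other hypoxia response genes stayed between -0.12 and 0.13. The secreted factors VEGFA, which drives vessel growth, and ADM, a vasodilator peptide, read -0.03 and 0.04. BNIP3 and BNIP3L, which tag mitochondria for removal, read -0.12 and -0.07. DDIT4, an inhibitor of mTORC1, read 0.13, the stress gene NDRG1 0.06 and the ankyrin repeat gene ANKRD37 0.08. The collagen prolyl hydroxylases P4HA1 and P4HA2 read 0.07 and -0.05, and the lysyl hydroxylase PLOD2 -0.02. None of them had non-overlapping groups. BNIP3 was highest in empty vector replicate 2 and DDIT4 lowest in empty vector replicate 1.

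**Figure D3:**
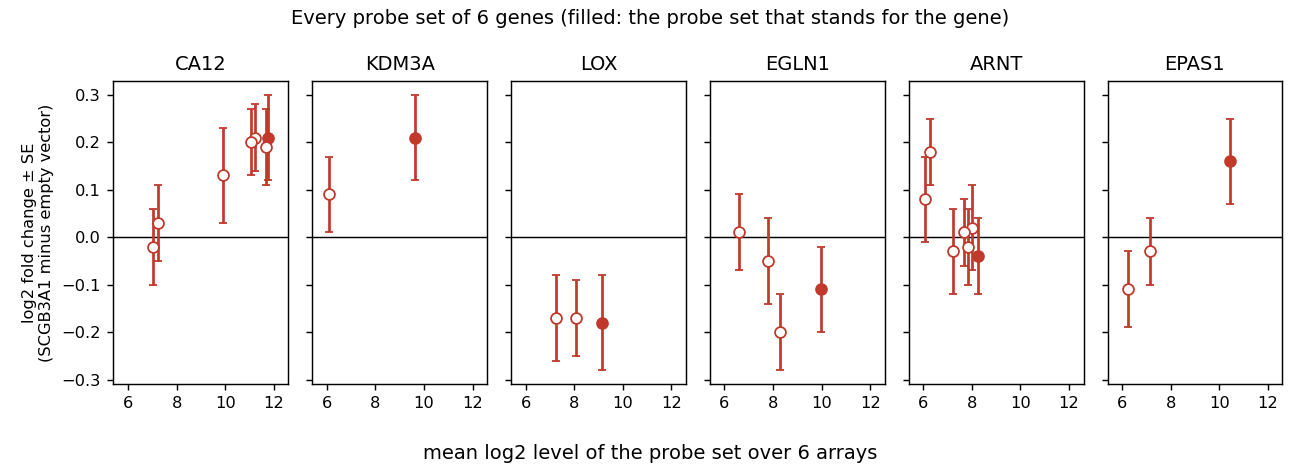
Log2 fold change ± SE, SCGB3A1 minus empty vector (vertical axis), of every probe set of 6 genes against its mean log2 level over the 6 arrays (horizontal axis), with a filled point for the probe set that stands for the gene. The 4 brightest probe sets of CA12 lie at 0.19 to 0.21 and its other 3 between -0.02 and 0.13. The 3 of LOX lie at -0.18 to -0.17. Those of ARNT and EPAS1 fall on both sides of 0. Those of EGLN1 lie at -0.20 to -0.05, except a dim one (mean level 6.58) at 0.01.

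Of the transcription factors, HIF1A read 12.85, 12.80 and 12.76 in SCGB3A1 arrays, against 12.79, 12.82 and 12.84 in empty vector arrays, with overlapping groups (-0.01, interval -0.16 to 0.14). EPAS1, which encodes HIF-2α, read 10.51, 10.53 and 10.51 in SCGB3A1 arrays, against 10.44, 10.15 and 10.48 in empty vector arrays. The groups did not overlap, narrowly, and the difference of 0.16 ± 0.09 SE (limma, adjusted p = 0.83) was 0.06 without empty vector replicate 2. The other probe sets of EPAS1, at mean levels of 7.15 and 6.23, read -0.03 and -0.11. ARNT, the shared partner, read 8.21, 8.22 and 8.30 in SCGB3A1 arrays, against 8.38, 8.17 and 8.29 in empty vector arrays (-0.04, limma adjusted p = 0.96). Of its 7 probe sets, 1 had an unadjusted p under 0.05 (log2 fold change 0.18, limma adjusted p = 0.78), at a mean level of 6.29, which is below the median of all probe sets.

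Over all members, 94 probe sets were measured, and 8 of them (8.51%) had an unadjusted p under 0.05, beside 6.20% of all probe sets. Of the 26 members with over 1 probe set, 21 had probe sets of both signs. That count includes dim probe sets and differences near 0, and no share over all genes is given beside it. It is thus not a result about these members.

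One array held many of the extreme values. Empty vector replicate 2 held the highest or lowest of the 6 values for 27 of the 38 members (71.1%), beside 53.6% of the 12656 genes whose level was above the median of all probe sets. Each of the other 5 arrays held an extreme of 10.5 to 42.1% of the members. The median distance from a gene's mean was 0.117 for members in that array, beside 0.0979 for those 12656 genes. Empty vector replicate 3, at the other end, lay 0.0338 from the mean.

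**Figure D4:**
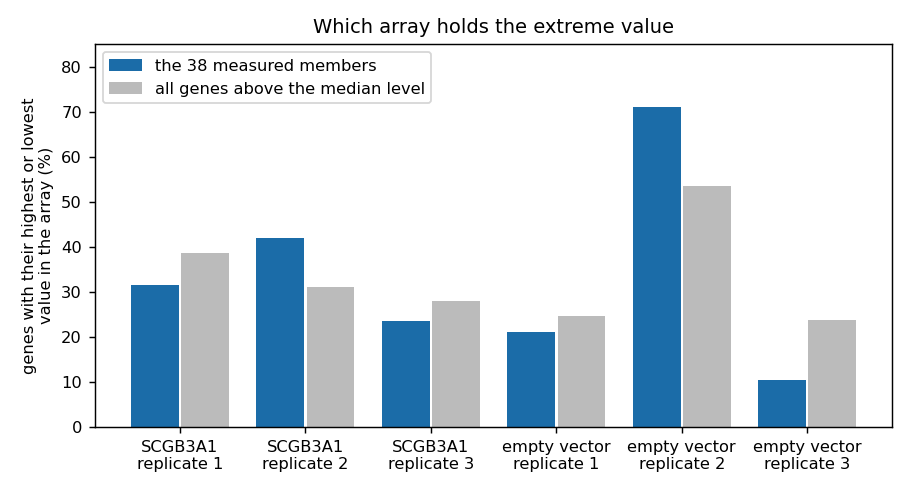
Share of genes (vertical axis, percent) that have their highest or lowest value of the 6 arrays in a given array, for the 38 members (blue bars) and for all 12656 genes above the median level (grey bars). Empty vector replicate 2 holds an extreme for 71.1% of the members and 53.6% of those genes.

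Along glycolysis, that array was the lowest of the 6 for 8 of the 16 enzymes and the highest for 5. Over all genes, dim ones included, it was the lowest for 26.3% and the highest for 21.5%. It was lowest for HK1 (0.43 below the mean of the other 5 arrays), PFKL (0.39 below), PFKP (0.26 below), ALDOA (0.17 below), PFKM (0.15 below), PKM (0.12 below), ENO2 (0.11 below) and GPI (0.10 below). It was highest for PGAM1 (0.31 above), TPI1 (0.18), PGK1 (0.12), ENO1 (0.09) and LDHA (0.09). The lowest values thus covered HK1 and the phosphofructokinase subunits but also ENO2 and PKM near the end, and probe sets of 1 gene did not go together. Counting probe sets above the median level, 5 enzymes, ALDOA, TPI1, PGK1, ENO1 and PKM, had empty vector replicate 2 highest in one probe set and lowest in another. For PGK1 the probe sets read 0.12 and 0.13 above and 0.26 and 0.24 below. Over the 21 members with at least 2 such probe sets, 7 (33.3%) were split in this way, beside 20.5% of the 6234 genes with at least 2. A gene with more probe sets has more chances of a split, and PGK1 had 6 and ENO1 4. The 2 shares were not matched on that number, so they cannot be compared directly. For GAPDH, the 3′ probe set of the array's controls minus the 5′ one gave -0.16 in that array and -0.16 to -0.06 in the other 5, and for ACTB 0.08 in that array and -0.08 to 0.03 in the others. The part of RNA quality in these splits was not tested.

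**Figure D5:**
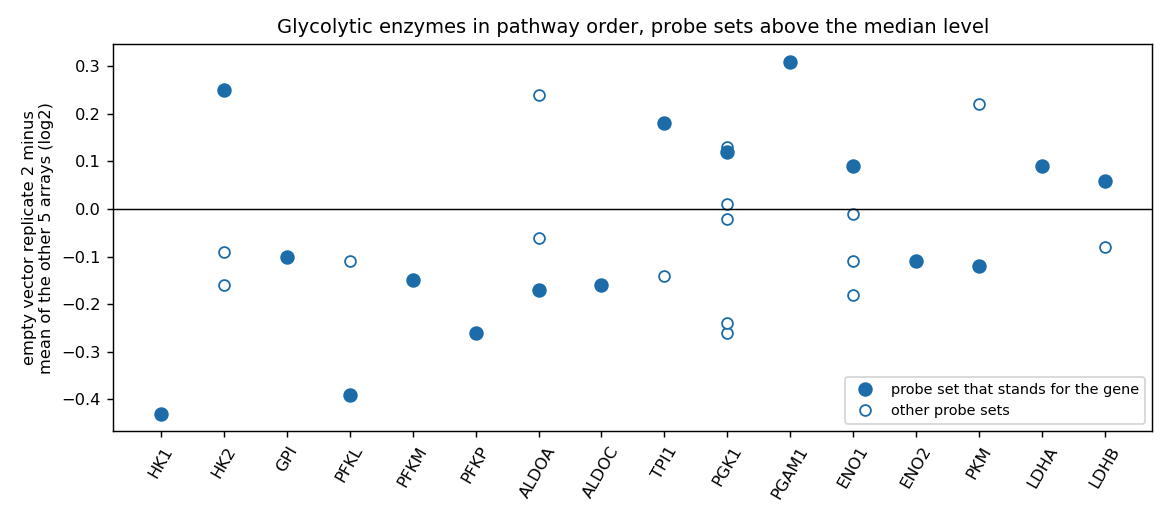
Value of empty vector replicate 2 minus the mean of the other 5 arrays (vertical axis, log2) for the glycolytic enzymes in pathway order, with filled points for the probe set that stands for the gene and open points for its other probe sets above the median level. HK1 lies at -0.43 and PGAM1 at 0.31, and the points of HK2, ALDOA, TPI1, PGK1, ENO1, PKM and LDHB fall on both sides of 0.

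Spread within groups also differed among members. The within-group SD of log2 values was 0.0115 for LDHB, 0.0247 for GPI and 0.0298 for LDHA, and 0.395 for HK2, 0.238 for PFKL and 0.22 for HK1. Its median was 0.0879 over the members and 0.0968 over all genes.

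Further genes of the same pathways were listed by name. Of 30 that belong to or surround glycolysis (GAPDH, other isoforms, transporters, the pentose phosphate pathway, the pyruvate dehydrogenase complex), 25 were measured, with a median log2 fold change of 0.02; 1 was higher at an unadjusted p under 0.05 and 0 were lower. Of 30 HIF regulators and targets, 29 were measured, with a median of 0.01; 1 was higher and 1 lower. Together 3 of the 54 measured had an unadjusted p under 0.05 (limma), beside 6.82% of all genes, and 3.93% of all genes were higher at that p. These counts are thus not a result about the lists, and PDK2, ERO1A and HIF3A are named by that p alone. None passed the adjusted threshold (limma, lowest adjusted p = 0.57 and 0.76). PDK2, another pyruvate dehydrogenase kinase, read 8.60, 8.59 and 8.59 in SCGB3A1 arrays, against 8.37, 8.30 and 8.27 in empty vector arrays. Its groups lay well apart for their spread, with a log2 fold change of 0.28 ± 0.07 SE and an interval of 0.13 to 0.43 (limma, adjusted p = 0.57), and its second probe set read 0.07. ERO1A, an oxidase of the endoplasmic reticulum that HIF induces, read 9.13, 9.28 and 9.65 in SCGB3A1 arrays, against 9.68, 9.59 and 9.75 in empty vector arrays (-0.32 ± 0.11 SE; limma, adjusted p = 0.76). SCGB3A1 replicate 3 lay within the control range, and the difference was -0.47 without that array (limma, adjusted p = 0.30) and -0.21 without SCGB3A1 replicate 1 (limma, adjusted p = 1.00). The other probe sets of ERO1A read 0.11 and -0.03. HIF3A, a HIF subunit whose short forms restrain the others, read 7.09, 7.35 and 7.08 in SCGB3A1 arrays, against 7.02, 6.61 and 6.98 in empty vector arrays (0.31 ± 0.11 SE; limma, adjusted p = 0.77), and 0.17 without empty vector replicate 2 (limma, adjusted p = 0.83). Its other 6 probe sets read between -0.17 and 0.14. GAPDH, the glycolytic enzyme often used as a reference, read 14.29, 14.31 and 14.22 in SCGB3A1 arrays, against 14.30, 14.17 and 14.26 in empty vector arrays, with overlapping groups (0.03, interval -0.13 to 0.19).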

How the data were processed

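For each sample, biotin-labelled cRNA made from 100 ng of RNA was read on 1 Affymetrix Human Genome U133 Plus 2.0 array. The authors used Chipster (3.8.0) for robust multiarray averaging (RMA), and the log2 values they deposited run from 5.66 to 14.7. RMA gives all arrays nearly 1 distribution, which hides any change in the RNA content of a cell, and it draws low values towards a floor, which understates differences of weak genes. The number of arrays limits the precision.

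Of 54675 probe sets, 62 manufacturer controls were left out. Gene symbols came from the platform table at GEO, checked against RefSeq (GRCh38.p14), which changed 0 symbols. Of the 54613 probe sets tested, 41091 had 1 symbol and 1801 several, which were not named. SCGB3A1 was compared with empty vector by limma (3.58.1, R 4.3.3; lmFit and eBayes, two-sided) over all probe sets with Benjamini-Hochberg adjustment, as the study's own empirical Bayes test. Pairs of genes were compared by exact permutation tests (SciPy 1.17.1). The fit was tested on simulated data. Members and gene lists were chosen with earlier results of these data known. Per-array values were given for SCGB3A1, the 2 members with the smallest p in each role group, members with unadjusted p under 0.05 and members whose probe sets disagree in sign with such a p; for other genes the outside rule was an unadjusted p under 0.05. LDHA, LDHB, LOX, EGLN3, HIF1A, ENO1 and GAPDH were added after their values were seen. Alternatives were other normalizations, a variance trend, weighted arrays, the replicate number as a block, leaving out each array, a filter on dim probe sets and other choices of probe set.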

Additional observations from a re-analysis of the deposited data

How the results depend on the processing

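No setting brought a member past the adjusted threshold. The number with an unadjusted p under 0.05, 2 in the report, was 4 with an intensity trend in the variance, 5 when a gene's probe sets were averaged and 1 of the 23 still measured without probe sets marked as shared between transcripts or genes. Leaving out 1 array gave 0 to 3, with 0 without SCGB3A1 replicate 1 or replicate 2. Among the 54 pathway genes outside the members, 3 in the report, the number was 6 with array weights and 1 of the 40 still measured without shared probe sets, and 1 to 4 with 1 array left out. The share of all genes at that p, 6.82%, is given for the fit in the report only. Whether the counts under other settings rise or fall for the listed genes in particular therefore cannot be read from them. The median log2 fold change of the hypoxia response genes was 0.0005 with averaged probe sets and -0.04 without shared probe sets. With 1 array left out it lay between 0.01 and 0.06, that of all members between -0.01 and 0.03, and that of the glycolytic enzymes between -0.02 and 0.06. With averaged probe sets, signs turned for ARNT (0.03), HK2 minus HK1 (-0.06), ALDOC minus ALDOA (0.05), LDHA minus LDHB (-0.05) and PDK1 minus PDK3 (0.01), and without shared probe sets for ENO2 minus ENO1 (-0.01). Signs also turned with 1 array left out, over ranges of -0.04 to 0.46 for HK2, -0.04 to 0.20 for HK1, -0.09 to 0.01 for ARNT, -0.24 to 0.50 for HK2 minus HK1, -0.03 to 0.10 for PFKP minus PFKL, -0.09 to 0.03 for ALDOC minus ALDOA and -0.16 to 0.07 for PDK1 minus PDK3. Signs held, over ranges of 0.04 to 0.17 for ENO2 minus ENO1, 0.02 to 0.06 for LDHA minus LDHB, 0.04 to 0.24 for EGLN3 and -0.47 to -0.21 for ERO1A, which was -0.08 with averaged probe sets and -0.03 without shared ones. The cause was not tested.

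Arrays of the same replicate number deviated from their group means with correlations of 0.145, -0.144 and -0.0871, so the numbers were not taken to pair the samples. With the replicate number as a block, 2 members had an unadjusted p under 0.05 and 0 an adjusted one, and no call changed.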
